A study of Arabidopsis thaliana with 6 samples.

Results

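The 10 genes described here encode the enzymes that turn glucose phosphate into starch inside the plastid: *PGM1*, *ADG1*, *ADG2*, *APL3*, *GBSS1*, *SS1*, *SS2*, *SS3*, *SS4* and *SBE2.2*. They were taken by gene identifier, 10 of the 37336 genes listed for each library. The rule uses no measured value, but the set was chosen with earlier results of these data known. Expression was measured in WOX5-marked cells sorted from primary roots of 5-day-old *Arabidopsis* seedlings, in 3 WT and 3 *bravo-2* libraries. Both groups are in the Col-0 background and carry the same *pWOX5:GFP* transgene, which marks the quiescent centre (QC) and, more weakly, vascular initials. The study reports a reduced signal of this reporter in *bravo-2* roots. Whether that changed which cells were sorted was not tested. The *bravo-2* seedlings, called *bravo* below, additionally carry a knockout allele of *BRAVO*. The number of plants behind a library is not given in the sources used here, and nothing states that libraries came from separate cultures, so p-values measure the spread between these libraries, which may be partly technical.

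Starch is built from ADP-glucose. Plastidial phosphoglucomutase converts glucose 6-phosphate to glucose 1-phosphate, ADP-glucose pyrophosphorylase (a complex of small and large subunits) activates it, starch synthases add the glucose to growing chains, and branching and debranching enzymes shape amylopectin. In the root tip, starch-filled amyloplasts are typical of columella cells, where they sediment and report the direction of gravity, while the QC and the columella stem cells next to it normally hold no visible starch granules.

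The 6 libraries held between 10990221 and 14425263 estimated counts, so that 3 counts, taken as the smallest level shown, lie between 0.208 and 0.273 CPM (counts scaled to the total of the library, here before any further normalization). Such limits cover counting error only, since the RNA was amplified before sequencing. All other CPM values were also normalized by the TMM method. This puts them on a different scale from these limits, by an amount and direction that differ between libraries. *BRAVO* ranged from 13.4 to 60.9 CPM in WT and from 10.3 to 13.9 CPM in *bravo* (log2 fold change -1.63, edgeR, adjusted p = 1.00, unadjusted p = 0.0244), so *BRAVO* reads were counted in every mutant library and the groups overlapped. The QC markers *WOX5*, *PLT1*, *PLT2*, *SCR*, *AGL42* and *BRAVO* were detected in all 6 libraries, but their summed level was far from even, at 394 to 1450 TPM (a level per gene length, scaled to the same total in each library) in WT and 322 to 3066 TPM in *bravo*. The 7 root hair and epidermis markers summed to 2998 to 4755 TPM in WT and 26.8 to 3401 TPM in *bravo*, with the low value in *bravo* replicate 1, where all 7 were at their lowest. In such bulk libraries, fewer cells of a type and less RNA per cell cannot be told apart.

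All 10 starch synthesis genes were expressed in every library. Their expression did not separate *bravo* from WT, but 9 of the 10 followed one order of the libraries, highest in *bravo* replicate 1 and WT replicate 2 and, for 8 of them, lowest in WT replicate 1 and *bravo* replicate 3. *ADG2* ran in the opposite direction. The lowest count of any member in any library was 7, for *ADG2* in *bravo* replicate 1, so none was at the limit of 3 counts.

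The 250 bases before the annotated start of each gene were read from the RefSeq genome TAIR10.1, and 4 of these windows are shown. *SS1*, *SS3* and *SS4* are the members with a G-box (CACGTG, a palindrome bound by bZIP and bHLH factors), and *ADG2* is the member with the opposite profile. Each is written 5′ to 3′ toward its gene, and capitals mark any match, on either strand, to CACGTG, to the evening element AAAATATCT, to the CCA1-binding site AAAAATCT or to TATAAA, matches that overlap being joined.

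SS1 (chr5:8266316-8266565, plus strand): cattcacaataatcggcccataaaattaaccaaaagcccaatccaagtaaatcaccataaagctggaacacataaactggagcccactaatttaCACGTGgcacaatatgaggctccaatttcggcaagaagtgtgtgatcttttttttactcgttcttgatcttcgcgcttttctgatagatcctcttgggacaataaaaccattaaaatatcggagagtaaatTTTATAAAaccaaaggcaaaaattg
SS3 (chr1:3951116-3951365, plus strand): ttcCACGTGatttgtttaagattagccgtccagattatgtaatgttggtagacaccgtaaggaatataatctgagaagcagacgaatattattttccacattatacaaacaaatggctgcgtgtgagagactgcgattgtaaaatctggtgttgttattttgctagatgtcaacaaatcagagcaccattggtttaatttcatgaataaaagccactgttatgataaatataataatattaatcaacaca
SS4 (chr4:10081858-10082107, plus strand): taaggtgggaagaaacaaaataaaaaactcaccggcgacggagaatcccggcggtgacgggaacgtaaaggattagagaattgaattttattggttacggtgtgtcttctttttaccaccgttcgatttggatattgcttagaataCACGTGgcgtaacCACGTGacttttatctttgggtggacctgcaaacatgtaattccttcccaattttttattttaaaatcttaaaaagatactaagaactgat
ADG2 (chr5:6466832-6467081, minus strand): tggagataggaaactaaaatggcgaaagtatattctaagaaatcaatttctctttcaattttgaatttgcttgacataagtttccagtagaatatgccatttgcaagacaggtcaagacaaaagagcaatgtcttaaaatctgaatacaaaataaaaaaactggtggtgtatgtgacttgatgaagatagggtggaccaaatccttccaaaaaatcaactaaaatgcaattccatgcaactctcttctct

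A G-box was found in 3 of the 10 windows, and in 6.49% of the windows of 27443 protein-coding genes. The evening element, a motif of clock-regulated genes, occurred only in *PGM1* among the members (2.36% of all windows) and the CCA1-binding site only in *SBE2.2* (6.69%). TATAAA occurred in *SS1*, *SS2* and *SBE2.2*, against 47.4% of all windows. *ADG1*, *ADG2*, *APL3* and *GBSS1* held none of these letters. The presence of letters in these windows is a description, not a binding site, and its relation to expression was not tested.

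Compared per length, *ADG1* and *GBSS1* were the most abundant members. *ADG1*, the catalytic small subunit of ADP-glucose pyrophosphorylase, had a mean of 58.1 ± 23.9 TPM (SD, n = 6 libraries), which is above 77.3% of the genes tested. *GBSS1*, which makes amylose within the granule, had 46.4 ± 35.0 TPM (SD, n = 6). They were followed by *SBE2.2* with 33.0 ± 24.96 TPM, *PGM1* with 28.8 ± 19.9 TPM and *SS1* with 28.3 ± 13.5 TPM (SD, n = 6). Below these came *SS3* at 14.6 TPM, *APL3* at 13.8 TPM, *SS2* at 11.7 TPM, *SS4* at 6.76 TPM and *ADG2* at 5.83 TPM (means of 6 libraries). Every pair of neighbours in this order overlapped over the 6 libraries. Within libraries, *SS1* was above *SS3* in 6 of 6 and *SS2* above *SS4* in 6 of 6, and *ADG1* was above *GBSS1* in 5, whereas *PGM1* was above *SS1* in 2 and *SS3* above *APL3* in 3.

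**Figure D1:**
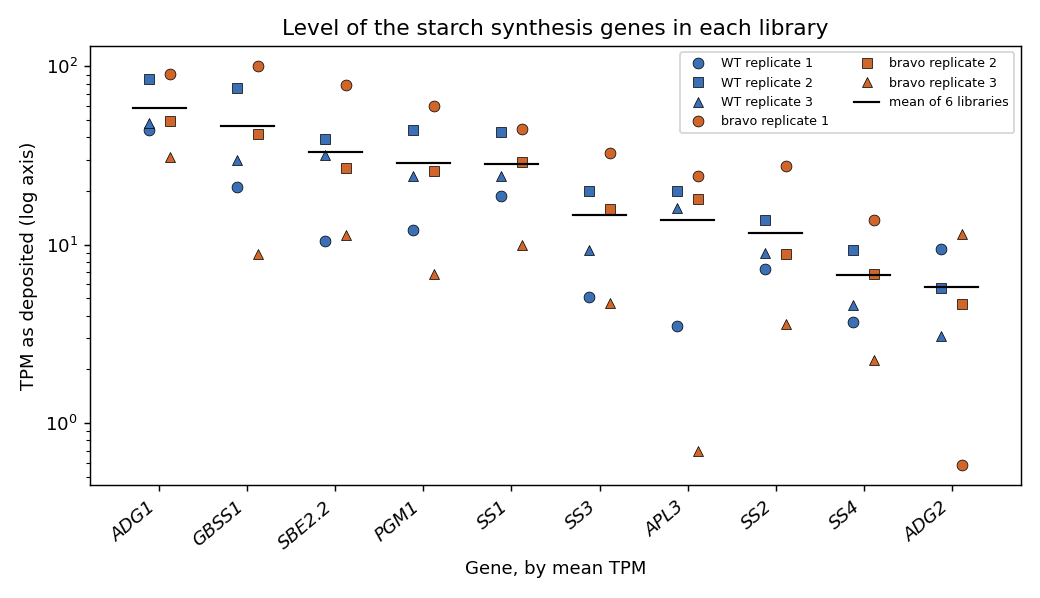
TPM of each gene (log axis) in the 3 WT (blue) and 3 *bravo* (orange) libraries, with black lines at the mean of 6. Symbols of both colours are mixed for every gene, *bravo* replicate 1 lies at or near the top of 9 genes, and *ADG2* shows the reverse, from 0.580 TPM in *bravo* replicate 1 to 11.5 TPM in *bravo* replicate 3.

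*PGM1* (AT5G51820) encodes the plastidial phosphoglucomutase, and its loss in *Arabidopsis* leaves plants nearly free of starch. Its 22 exons span chromosome 5 from 21063298 to 21068327 (TAIR10.1, as for all genes here). It measured 23.2, 66.9 and 41.9 CPM across WT replicates 1, 2 and 3 and, in the same order, 76.5, 41.3 and 14.0 CPM across *bravo*. The *bravo* libraries spanned the WT range on both sides. The log2 fold change, *bravo* over WT here and throughout, was -0.00 (standard error 0.67).

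*ADG1* (AT5G48300, also APS1; chromosome 5 from 19570238 to 19572804, 8 exons) was the steadiest member. It measured 63.6, 97.0 and 62.4 CPM across WT, against 86.7, 58.8 and 47.9 CPM across *bravo*, a 2.03-fold range over the 6 libraries. WT replicate 2 and *bravo* replicate 1 were again the upper 2, in the reverse order by TPM (84.9 and 90.5 TPM). Its log2 fold change was -0.21, with a standard error of 0.42. *APL3* (AT4G39210; chromosome 4 from 18259547 to 18263468, 15 exons), a large subunit known from sugar-induced expression in sink tissues, varied far more. It measured 5.51, 25.3 and 21.9 CPM across WT, against 25.4, 23.1 and 1.04 CPM across *bravo*. In 4 libraries it lay between 21.9 and 25.4 CPM, while WT replicate 1 and *bravo* replicate 3 were low, the latter with 11 counts. Its log2 fold change was -0.09 (standard error 1.03).

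*ADG2* (AT5G19220, APL1 in RefSeq; chromosome 5 from 6463824 to 6466831, 15 exons) encodes the large subunit that predominates in leaves. It measured 12.3, 5.93 and 3.60 CPM across WT, against 0.503, 5.09 and 16.0 CPM across *bravo*. Its highest libraries, *bravo* replicate 3 and WT replicate 1, were the lowest ones for 8 other members, and its lowest, *bravo* replicate 1, was the highest for 7. The range between *bravo* replicates 3 and 1 was 31.8-fold, whereas between the genotypes the log2 fold change was -0.02, with a standard error of 1.07. *ADG2* shares 602 of its 1732 exon bases with AT5G19221, an antisense transcript, and 43 bases with AT5G19210, both on the opposite strand. Whether the counting used the strand is not stated, so reads in the shared bases cannot be assigned with certainty. AT5G19221 was given 7.18 to 35.0 counts per library, with the most in *bravo* replicate 1. *ADG2* and AT5G19221 together had 166, 86 and 60 counts in WT and 42, 69 and 176 counts in *bravo*, so the highest and the lowest library stayed the same. The range of these sums was much narrower than that of *ADG2* alone, which had 7 counts in *bravo* replicate 1 and 169 in *bravo* replicate 3. With AT5G19210, which shares far fewer bases and had 6 to 95 counts, added instead, *bravo* replicate 3 was still highest but WT replicate 3 was lowest.

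The proportion of the large subunit genes does not depend on the scaling of a library. Beside *ADG2* and *APL3*, the large subunits are encoded by *APL2* and *APL4*, which were both expressed. *APL4* gave most of the large subunit TPM in 4 libraries and the largest part in all 6, between 38.8% and 69.3%. *ADG2* made up 17.0%, 3.76% and 2.71% in WT replicates 1, 2 and 3, and 0.283%, 5.62% and 29.4% in *bravo*. *APL3* made up 6.30%, 13.2% and 14.1% in WT and 11.8%, 21.8% and 1.79% in *bravo*. *ADG2* thus exceeded *APL3* in WT replicate 1 and *bravo* replicate 3 only, and both shares overlapped between the genotypes. *APS2*, the second small subunit gene, was listed at 0 TPM in 5 libraries and at 0.840 TPM in *bravo* replicate 2. Large subunits together were 1.25 to 2.34 times the small subunits in WT and 1.25 to 2.26 times in *bravo*.

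**Figure D2:**
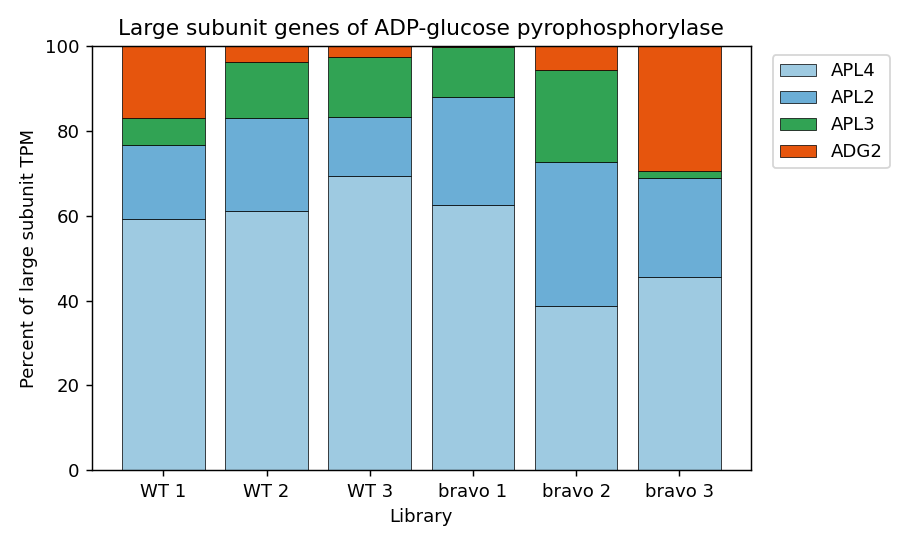
Share of each large subunit gene in the summed large subunit TPM (percent, stacked to 100) in each library. *ADG2* (orange) takes 17.0% in WT 1 and 29.4% in *bravo* 3 but 0.283% in *bravo* 1, and *APL3* (green) is smallest in the libraries where *ADG2* is largest.

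Among the starch synthases, *GBSS1* (AT1G32900; chromosome 1 from 11920390 to 11923866, 13 exons) measured 37.1, 105 and 46.9 CPM across WT, against 118, 61.5 and 16.7 CPM across *bravo*. The upper 2 and the lower 2 libraries each held 1 library of each genotype. The log2 fold change was 0.05 (standard error 0.74), while the highest library exceeded the lowest by 7.05-fold. *SS1* (AT5G24300; chromosome 5 from 8266566 to 8271205, 16 exons in its longest model), which extends short amylopectin chains, measured 37.8, 67.5 and 44.6 CPM across WT, against 60.9, 49.0 and 21.4 CPM across *bravo*. On this scale it was highest in WT replicate 2, but by TPM it was highest in *bravo* replicate 1, at 44.8 against 42.6 TPM. Its range in CPM of 3.15-fold was the narrowest of the 5 synthases listed.

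*SS2* (AT3G01180; chromosome 3 from 62245 to 66111, 8 exons), which lengthens amylopectin chains beyond those of SS1, measured 17.2, 25.6 and 18.9 CPM across WT, against 42.9, 17.2 and 9.0015 CPM across *bravo*. The *bravo* libraries held both extremes. *SS3* (AT1G11720; chromosome 1 from 3951366 to 3957044, 16 exons) makes longer chains, and it measured 14.6, 46.0 and 24.3 CPM across WT, against 62.3, 38.3 and 14.3 CPM across *bravo*. Its log2 fold change of 0.44 (standard error 0.65) was the largest of the 10 members, yet smaller than its standard error. *SS4* (AT4G18240; chromosome 4 from 10082108 to 10087203, 16 exons), needed for starch granule initiation, measured 9.79, 19.7 and 10.8 CPM across WT, against 24.2, 15.2 and 6.35 CPM across *bravo*, again with both extremes in *bravo*. *SS3* contains the small antisense gene AT1G04873 (240 shared exon bases, at most 9.22 counts) and *SS2* overlaps AT3G01175 by 47 exon bases (at most 11 counts), against at least 151 and 95 counts for the 2 members. Within the synthases, counting *SS5* as well, *GBSS1* took between 22.4% (*bravo* replicate 3) and 41.5% (WT replicate 2) of the TPM, and *SS1* between 17.8% and 27.1%.

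*SBE2.2* (AT5G03650; chromosome 5 from 931762 to 937702, 22 exons), a branching enzyme that introduces the branch points of amylopectin, measured 22.7, 67.9 and 61.7 CPM across WT, against 113, 48.8 and 26.3 CPM across *bravo*. It was the only member whose lowest value was in WT replicate 1. It made up 26.8% to 45.2% of the TPM of the 2 class II branching enzymes, the rest being *SBE2.1*.

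In the comparison of *bravo* with WT, none of the 10 members passed the threshold (edgeR's quasi-likelihood fit, Benjamini-Hochberg adjustment over 15739 genes, adjusted p = 1.00 for each), where 0 genes in all, or 0%, did so. None of the 10 had an unadjusted p-value under 0.05, against 0.794% of all genes tested, and DESeq2 likewise called 0 members at either level. After removal of the first residual component, limma called 4.3% of all genes at an adjusted p-value under 0.05, of which those higher in *bravo* were 0.286% of all genes, and 18.8% had an unadjusted p-value under 0.05, but 0 members reached either level. The WT and *bravo* values overlapped for all 10, while 3.67% of all genes tested did not overlap. For the single members, p-values of a two-sided exact permutation test ran from 0.50 to 1.00, where 3 libraries against 3 allow no less than 0.10. Of the 10, 5 had a log2 fold change above 0 and 5 below, beside 54.3% above 0 among all genes tested, and the median was 0.02 beside 0.04 for all genes. The standard errors, from 0.42 for *ADG1* to 1.07 for *ADG2*, exceeded every fold change on the log2 scale.

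The sign of these values depended on single libraries. Without *bravo* replicate 1, 1 of the 10 members was higher in *bravo* and their median on the log2 scale was -0.50, and without *bravo* replicate 3 it was 8 of 10, with a median of 0.50. Without WT replicate 2, 9 of 10 were higher, with a median of 0.40. Upper quartile normalization gave 7 of 10 higher and a median of 0.15, and limma on log2(CPM + 1) gave 3 of 10 and a median of -0.18.

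**Figure D3:**
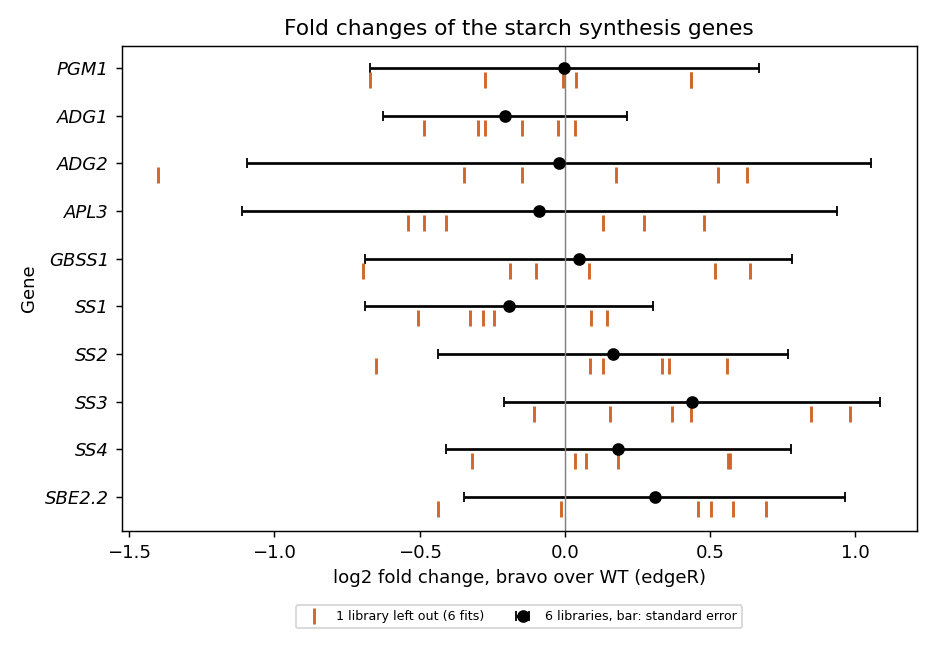
log2 fold change (*bravo* over WT) of each gene with its standard error (black), and the 6 values obtained with 1 library left out (orange ticks). All standard errors span 0, and the ticks lie on both sides of 0 for all 10 genes.

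The differences between libraries of 1 genotype were larger than those between genotypes. The median within-genotype SD of the members was 0.94 on the log2 scale, beside 0.71 for all genes tested and 0.68 for the 10923 genes with a mean in the members' range. The summed level of the 10 members was 136, 355 and 201 TPM in WT replicates 1, 2 and 3, and 473, 227 and 91.0 TPM in *bravo*. *bravo* replicate 1 and WT replicate 2 formed the upper pair for 9 of the 10 members, beside 16.8% of all genes tested. *bravo* replicate 3 and WT replicate 1 formed the lower pair for 8 of 10, beside 33.8% of all genes. *bravo* replicate 1 is itself an extreme library, holding the highest value of 31.8% and the lowest value of 33.8% of all genes tested.

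Each member was also set against the mean z-score of the other 9 over the 6 libraries. Pearson's r was 0.995 for *GBSS1*, 0.990 for *PGM1*, 0.973 for *SS4* and 0.970 for *SS1*, and between 0.847 and 0.919 for *ADG1*, *APL3*, *SS2*, *SS3* and *SBE2.2*. For *ADG2* it was -0.843. These values are descriptive, as they rest on 6 libraries whose composition all genes share. Outside the members, the 5 genes most like their mean profile were *QKY* (AT1G74720, r = 1.00), which encodes a C2-domain protein, *PUB8* (AT4G21350, 0.999), a plant U-box protein, AT5G19150 (0.998), annotated as a pfkB-like carbohydrate kinase, AT5G09240 (0.997), annotated as a single-stranded DNA-binding regulator, and AT1G65920 (0.996), an RCC1 family protein. Such likeness was frequent, since 1620 of the 15729 other genes tested, or 10.3%, had an r above 0.9.

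Cell type markers were read in the same libraries, as RNA levels and not as cell numbers. Of the 6 QC markers, 5 were highest in *bravo* replicate 1, and 5 had WT replicate 1 and *bravo* replicate 3 as their lower pair, as most members did. The members' upper pair was that of only 2 of the 6. *WOX5*, *SCR*, *AGL42* and *BRAVO* were higher in WT replicate 3 than in WT replicate 2. *PLT1*, which had both pairs, had 171, 604 and 445 TPM in WT and 1256, 335 and 126 TPM in *bravo*. Root cap and columella markers were present in every library, with a summed level of 443 to 712 TPM in WT and 298 to 664 TPM in *bravo* and none of the 8 at 0. They did not vary as one group. *FEZ*, a NAC factor of root cap stem cells, the auxin carrier gene *PIN3*, and *LZY2* and *LZY3*, which act in gravity signalling of columella cells, had the same upper pair as the starch genes, *LZY3* with 310 CPM in WT replicate 2 and 167 CPM in *bravo* replicate 1 against 64.7 to 122 CPM elsewhere. *SMB*, *BRN1* and *BRN2*, NAC factors of maturing cap cells, and the cap cellulase gene *CEL5* did not. *CEL5* was highest in WT replicate 1 with 505 CPM and had 87.5 CPM in WT replicate 2. The 4 endodermis markers summed to 11.3 to 278 TPM in WT and 15.2 to 217 TPM in *bravo*, lowest in WT replicate 2 and *bravo* replicate 1, and the 6 stele markers to 59.7 to 127 TPM and 58.7 to 110 TPM, with 3 of them at 0 in some library. The part of QC cells, cap cells or root hair cells in the levels of the starch genes was not tested.

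**Figure D4:**
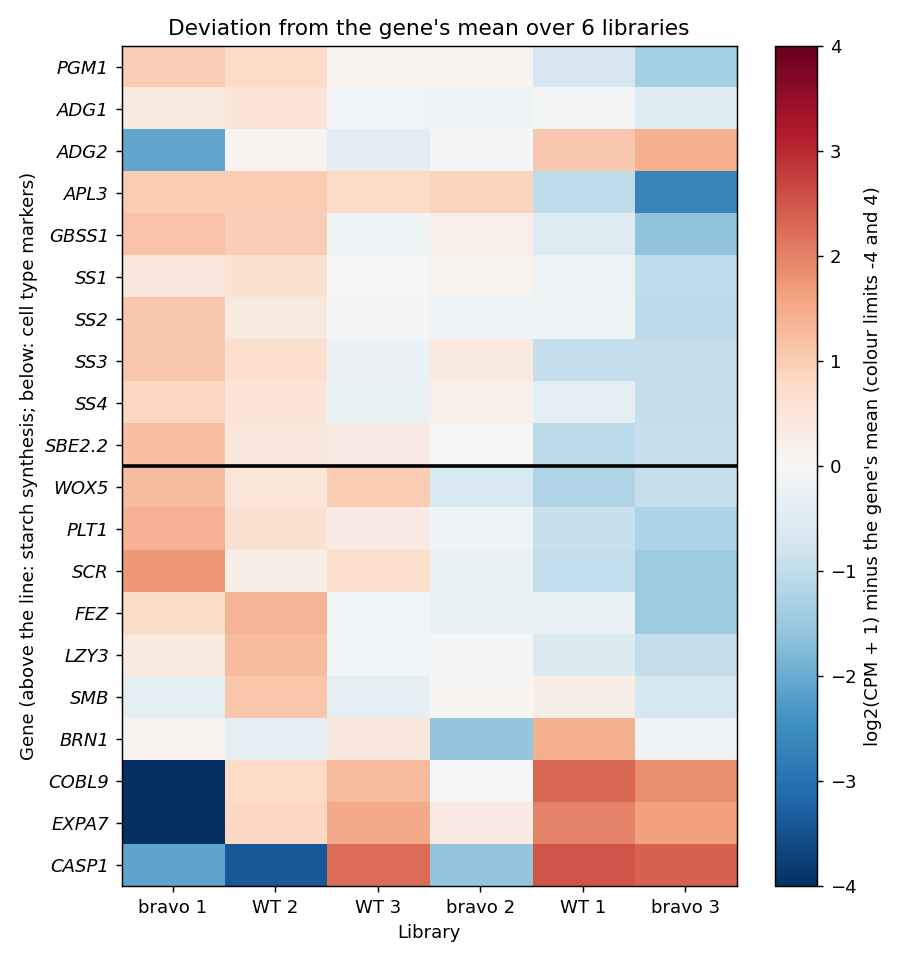
Deviation of log2(CPM + 1) from each gene's mean over the 6 libraries (colour, in log2 units), for the 10 starch synthesis genes (above the line) and 10 of the marker genes (below it), with libraries arranged by the order most members share. *bravo* 1 and WT 2 are red and *bravo* 3 is blue for 9 members as well as *WOX5*, *PLT1* and *SCR*. Of these markers, *WOX5* and *SCR* are higher in WT 3 than in WT 2, and only 2 of the 6 QC markers listed had the members' upper pair. *BRAVO*, which is not drawn, had 60.9 CPM in WT 3 and 13.9 CPM in *bravo* 1. *ADG2* is reversed at both ends, and *COBL9* and *EXPA7* in *bravo* 1 lie beyond the end of the colour scale.

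The other genes of starch metabolism were taken from a list of 53, of which 43 passed the filter. None passed the adjusted threshold in *bravo* against WT, 26 were above 0 and 17 below, and the median log2 fold change was 0.05. The upper pair of the members was also that of 22 of these 43 genes, or 51.2%. It was most frequent among proteins that build the polymer or the granule, with 9 of 12. In this group *LESV*, a starch-binding protein of the granule matrix, measured 60.4, 178 and 101 CPM across WT, against 253, 85.8 and 53.3 CPM across *bravo*, and *SBE2.1* measured 61.8, 139 and 74.4 CPM across WT, against 142, 83.9 and 46.9 CPM across *bravo*. Both repeated the order seen for *GBSS1* at the upper and lower end.

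Among 18 genes of starch breakdown and maltose export that were tested, 9 had this upper pair. *LSF2*, a glucan phosphatase, did, with 79.2 CPM in WT replicate 2 and 84.3 CPM in *bravo* replicate 1 against 30.5 to 51.6 CPM elsewhere. *BAM1*, a plastidial beta-amylase induced by stress, had the reverse profile, with 226, 131 and 165 CPM across WT, against 56.0, 121 and 462 CPM across *bravo*. Supply and import genes were divided as well. *PPA6*, the plastidial pyrophosphatase that removes a product of the ADP-glucose step, was highest in *bravo* replicate 1 at 221 CPM and lowest in *bravo* replicate 3 at 62.5 CPM. *PGM3*, a cytosolic phosphoglucomutase, went from 52.4 CPM in *bravo* replicate 1 to 516 CPM in *bravo* replicate 3. *GPT2*, a glucose 6-phosphate carrier of the plastid envelope, was listed at 0 in all 6 libraries, while *GPT1* was present in all, with a mean of 49.8 ± 6.85 TPM (SD, n = 6).

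Sucrose cleavage, which feeds this pathway in sink cells, held the only other starch genes at an unadjusted p-value under 0.05 (edgeR). They were 2 of the 43 other starch genes tested and 2 of the 4 in this list, beside 0.794% of all genes tested. The same 2 were the only ones of the 43 whose WT and *bravo* values did not overlap, beside 3.67% of all genes tested. *CINV2*, a cytosolic invertase, measured 5.84, 5.25 and 2.79 CPM across WT, against 13.0, 12.2 and 14.3 CPM across *bravo*. All 3 *bravo* libraries were above all 3 WT libraries, with a log2 fold change of 1.51 and a standard error of 0.51 (edgeR, adjusted p = 1.00, unadjusted p = 0.0195). *SUS1*, a sucrose synthase, measured 4.11, 2.97 and 4.26 CPM across WT, against 21.5, 7.38 and 7.96 CPM across *bravo*, likewise without overlap, as 578 genes in all (3.67%) were, with a log2 fold change of 1.70 and a standard error of 0.62 (edgeR, adjusted p = 1.00, unadjusted p = 0.0270). The log2 fold change of *SUS1* was 1.01 without *bravo* replicate 1. *SUS1* passed the filter of 4 CPM only through *bravo*, as its mean in WT was lower. Its p-value and its lack of overlap are therefore not independent of its high level in *bravo*. With the replicate block in edgeR the unadjusted p-values were 0.0844 for *CINV2* and 0.103 for *SUS1*. Both had p = 0.10 in the two-sided exact permutation test, the smallest possible. The genes of highest level in this list did not share the direction. *CINV1* measured 241, 182 and 160 CPM across WT, against 97.9, 160 and 226 CPM across *bravo*, and *SUS3* measured 32.5, 53.5 and 14.2 CPM across WT, against 16.5, 13.7 and 12.7 CPM across *bravo*.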

How the data were processed

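Libraries of 3 WT and 3 *bravo-2* samples were analysed. Per the labels and the methods of the study, reads were trimmed with cutadapt, mapped to TAIR10 with STAR and quantified with RSEM on Araport11 transcripts. Versions and the strand setting are not given in the sources used here. The authors deposited for each gene RSEM's estimated count (expected count), without normalization, and its TPM value, scaled to the same total in every library. The deposited effective length and posterior standard deviation of the count (at most 2.16 counts for a member) were also read.

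Estimated counts were rounded. The 15739 of 37336 genes whose mean reached 4 CPM in WT or in *bravo* were tested by edgeR's quasi-likelihood test with TMM factors, without covariates, at a Benjamini-Hochberg adjusted p-value of 0.05. Single genes were compared by exact permutation on log2(CPM + 1). TPM served for levels between genes. Members and lists were chosen with earlier results of these data known. The rule named all members, the 2 most abundant genes of each list of other starch genes with any at an unadjusted p-value under 0.05, any marker listed, and the 5 genes most like the members' mean z-score. Named outside this rule were *GPT1* and *GPT2*, the genes overlapping a member, and *APL2*, *APL4*, *APS2* and *SS5*, which entered the shares within enzyme families. The labels name no batch or sorting day, but the study's methods report sorting as a confounded factor, corrected there with ARSyN. The study then found BRAVO-regulated genes with NOISeqBIO, where edgeR here called 0. ARSyN and NOISeqBIO were not run here, and the removal of the first residual component with limma stood in for ARSyN. The tests were checked on simulated counts. These lacked the differences between libraries that many genes share here, so the check does not show how many changes were missed. Gene models and sequences were RefSeq's of TAIR10.1, in which 20638 of 20641 genes with a single transcript had the spliced length of the deposited tables (to within 0.5 bases). The fits ran in edgeR 4.0.16, DESeq2 1.42.0 and limma 3.58.1 under R 4.3.3. Permutation tests used numpy 2.4.6, tables pandas 2.3.3 and plots matplotlib 3.10.9, under Python 3.11.15.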

Additional observations from a re-analysis of the deposited data

How the results depend on the processing

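No member passed the threshold or an unadjusted p-value of 0.05 under any of the 13 alternatives run, and what changed was the sign of small fold changes and the count over all genes. That count was 0 in edgeR, 13 in DESeq2, 1 with all genes that had a count and 676 of 15739 (4.3%) after removal of the first residual component, a fit whose degrees of freedom were not reduced. The replicate numbers are shared by the genotypes in the labels, but same-numbered libraries did not deviate together (correlations across genes of -0.72, -0.07 and -0.43). The sample titles also hold codes whose leading numbers do not all match the replicate numbers. Their meaning is not given, and pairing by them was not tested. In the fit with a replicate block, 0 genes passed, 52 had an unadjusted p-value under 0.05 in place of 125, and 3 of 10 members were higher in *bravo*, as in both limma fits, in place of 5. In that block *GBSS1* had a log2 fold change of -0.25 and *SS2* one of -0.13, and in both limma fits they had -0.19 and -0.088. *PGM1* turned to 0.12 and *APL3* to 0.020 with upper quartile normalization, *ADG2* to 0.027 with DESeq2 and *PGM1* to 0.0056 with all genes that had a count. *ADG2* was not tested with at least 10 counts in every library.

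With each library left out in turn, 0 genes passed in each fit, the members higher in *bravo* numbered 1 to 9 and their median ran from -0.50 to 0.50. The log2 fold changes ran from -0.67 to 0.44 for *PGM1*, -0.48 to 0.035 for *ADG1*, -1.40 to 0.63 for *ADG2*, -0.54 to 0.48 for *APL3*, -0.69 to 0.64 for *GBSS1*, -0.51 to 0.15 for *SS1*, -0.65 to 0.56 for *SS2*, -0.11 to 0.98 for *SS3*, -0.32 to 0.57 for *SS4* and -0.44 to 0.69 for *SBE2.2*. *CINV2* (1.26 to 1.74) and *SUS1* (1.01 to 1.96) kept their sign, but not their unadjusted p-value under 0.05 in edgeR, which was 0.0677 for *CINV2* without WT replicate 3, and for *SUS1* 0.0551, 0.0871 and 0.0611 without WT replicates 1, 2 and 3 and 0.179 without *bravo* replicate 1. *CINV2* passed the threshold only after the component removal (limma, adjusted p = 0.0406, range over its alternatives 0.0406 to 1.00). Ordered by median TPM or by CPM per kb, 6 of the 10 members kept their place in the order by level. The causes of these changes were not tested.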
